A study of Mus musculus with 8 samples.

Results

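The sex difference that was left in the liver after loss of Bcl6 was measured by comparing males with females among 4 arrays labelled as liver-specific Bcl6 knockout, 2 from females and 2 from males, of 8 arrays in all. The other 4 arrays, 2 from females and 2 from males labelled wild type, gave the reference for the same comparison. Per the labels, RNA came from whole liver of mice aged 10 to 11 weeks. The Cre driver, the alleles and the strain are not given in the sources used here, nor is it stated that the 2 arrays of a group came from different animals. The p-values therefore reflect the spread between arrays, which may be technical. The comparison covered 35986 autosomal probes of 56605 non-control probes. The test took in 17087 autosomal genes and unnamed transcripts, 15004 with a gene symbol, that the scanner software called well above background on both arrays of a group, whichever of the 4 it was. Of these, 16603 passed through a knockout group and 484 only through a wild-type group. All differences are male minus female on the log2 scale, so that 1 is a doubling, and all levels are log2 signal minus the 75th percentile of the array.

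Bcl6 is a zinc-finger repressor of transcription. In rodents the pituitary releases growth hormone in pulses in males and more evenly in females, and the hepatic transcription factor STAT5, activated through the growth hormone receptor, carries this pattern to the genes that make male and female livers differ. Bcl6 is known to bind DNA letters much like those that STAT5 binds and is more abundant in male liver. Genes that differ between male and female livers include cytochromes P450, sulfotransferases, transporters and the major urinary proteins, which carry pheromones into male urine.

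STAT proteins bind the letters TTCNNNGAA, which read the same on both strands. These letters were searched in the RefSeq promoter windows (build GRCm38.p6, 250 bases before to 50 bases after a gene's start). They occurred in 2621 of 31396 autosomal windows (8.35%) and in 1084 of 14972 windows of the autosomal genes tested (7.24%). Genes that differed between the sexes in wild type had them in 10 of 139 windows (7.19%). Genes whose sex difference differed between the genotypes had them in 4 of 28 windows (14.3%). None of the 4 windows of the genes that passed the test in knockout held them. Of 16 genes with the largest change in sex difference among those whose interaction passed the test, 10 had a window, and the letters were in those of Slc22a26, an organic anion transporter, and Sult3a1, a sulfotransferase. Both windows are shown because they held the letters. Both genes were female-biased in wild type and expressed in knockout livers of both sexes. So were Cux2, Cyp2b9, Cyp2b13 and Cyp3a44, whose windows held no match. The match, in capitals, lies 141 bases before the start of Slc22a26 (chr19:7802618-7802917, minus strand) and 109 bases before the start of Sult3a1 (chr10:33857472-33857771, plus strand). A match describes these letters and is not a binding site.
Slc22a26: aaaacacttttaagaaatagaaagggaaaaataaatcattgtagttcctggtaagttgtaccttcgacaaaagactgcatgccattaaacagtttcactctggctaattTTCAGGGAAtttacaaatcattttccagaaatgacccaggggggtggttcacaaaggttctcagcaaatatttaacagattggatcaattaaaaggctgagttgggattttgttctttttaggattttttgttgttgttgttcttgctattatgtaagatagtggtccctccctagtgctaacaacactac
Sult3a1: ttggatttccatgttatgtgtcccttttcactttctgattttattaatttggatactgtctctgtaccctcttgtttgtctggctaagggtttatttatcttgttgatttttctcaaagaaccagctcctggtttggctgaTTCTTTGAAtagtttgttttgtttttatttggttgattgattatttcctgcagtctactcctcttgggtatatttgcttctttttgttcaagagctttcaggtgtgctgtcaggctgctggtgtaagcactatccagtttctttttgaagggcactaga

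The sex labels of the 4 knockout arrays were checked first. Xist, the RNA that silences 1 X chromosome in females, was at -0.26 and 0.09 in knockout females and at -6.71 and -6.91 in knockout males, at least 24.4-fold lower in males (limma, adjusted p = 0.000200). The Y-linked genes Eif2s3y, Ddx3y and Kdm5d were at least 69.1-fold, 10.3-fold and 10.1-fold higher in knockout males, and none was above background in females. Uty was at least 11.0-fold higher (limma, adjusted p = 0.0512). Bcl6 itself read 1.15 and 3.93 in knockout females and 4.01 and 3.53 in knockout males, against 2.48, 0.39, 3.48 and 2.41 in wild type. The position of its probe relative to the deleted part is not given, so this value checks no genotype label.

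The arrays shared 1 slide and were scanned together, with females in row 1 and males in row 2, so slide row and sex cannot be told apart. Between 33677 and 36459 of 59305 non-control spots per array were well above background, and none was saturated. In knockout, 235 genes were above background on both arrays of 1 sex and on neither of the other, 34 in males and 201 in females, and 18 and 49 of these differed by at least 2-fold. Of 10 spike-in controls, 8 were above background, and their male minus female difference was 0.0338 to 0.0689 in knockout and -0.00951 to 0.206 in wild type. Summed levels of hepatocyte markers were 9211 and 8256 in knockout females and 9312 and 9081 in knockout males. With 2 arrays against 2, an exact permutation test cannot go below p = 0.333, so the tests come from limma fitted across all genes and all 8 arrays.

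Little of the autosomal sex difference was left in knockout livers. Over autosomal genes above background on all 8 arrays, the root-mean-square difference between 2 knockout arrays of opposite sex was 0.276 to 0.339, and between 2 of the same sex it was 0.247 and 0.302. These ranges overlapped. In wild type, arrays of opposite sex differed by 0.475 to 0.531 and arrays of the same sex by 0.325 and 0.405, without overlap. The median absolute sex difference was 0.115 in knockout and 0.185 in wild type, and 278 genes (1.63%) against 799 (4.68%) differed by at least 2-fold.

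**Figure D1:**
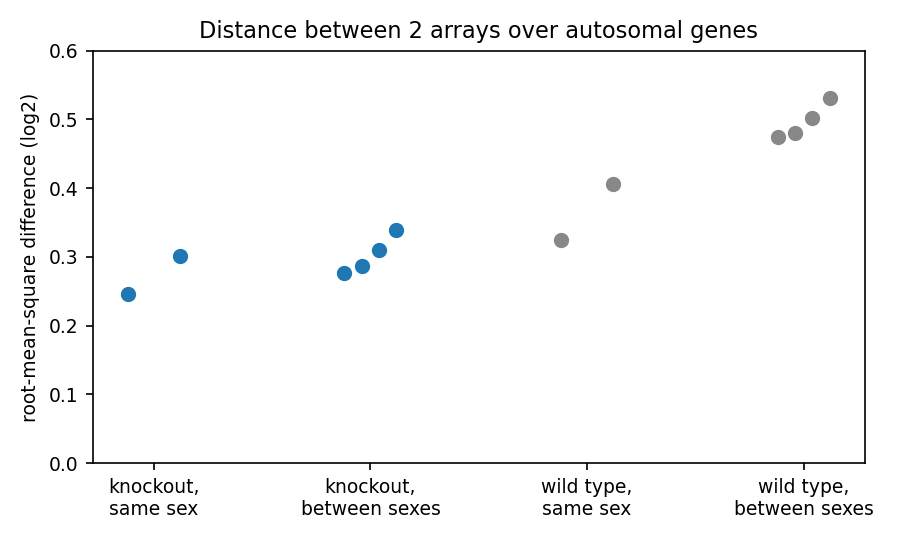
Root-mean-square log2 difference between 2 arrays over autosomal genes, each point 1 pair of arrays. Knockout pairs of opposite sex (0.276 to 0.339) overlapped those of the same sex (0.247 and 0.302), while wild-type pairs of opposite sex (0.475 to 0.531) lay above all others shown.

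In knockout, 4 autosomal genes passed the test (limma, adjusted p under 0.05), which is 0.0234% of 17087, with 3 higher (0.0176%) and 1 lower (0.00585%) in males. In wild type 162 passed (0.948%), 95 higher (0.556%) and 67 lower (0.392%) in males. At an unadjusted p under 0.05 the shares were 5.32% in knockout (909 genes, 406 higher, 2.38%, and 503 lower, 2.94%, in males) and 17.8% in wild type (3042 genes). The sex difference itself differed between genotypes for 32 genes (0.187%), and for 1360 (7.96%) at an unadjusted p under 0.05. The arrays of the sexes did not overlap for 41.2% of genes in knockout, 23.1% higher and 18.1% lower in males, and for 48% in wild type. The knockout count was 1 with another background correction, 2 with no background filter, with adjustment over autosomal genes alone or with the 4 knockout arrays alone, and 0 among genes above background on all 8 arrays. Leaving out 1 array leaves 1 in its group, so such a fit does not count sex differences. Without either knockout female array most calls were lower in males, and without either knockout male array most were higher. The direction thus turned with the sex of the array left out.

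**Figure D2:**
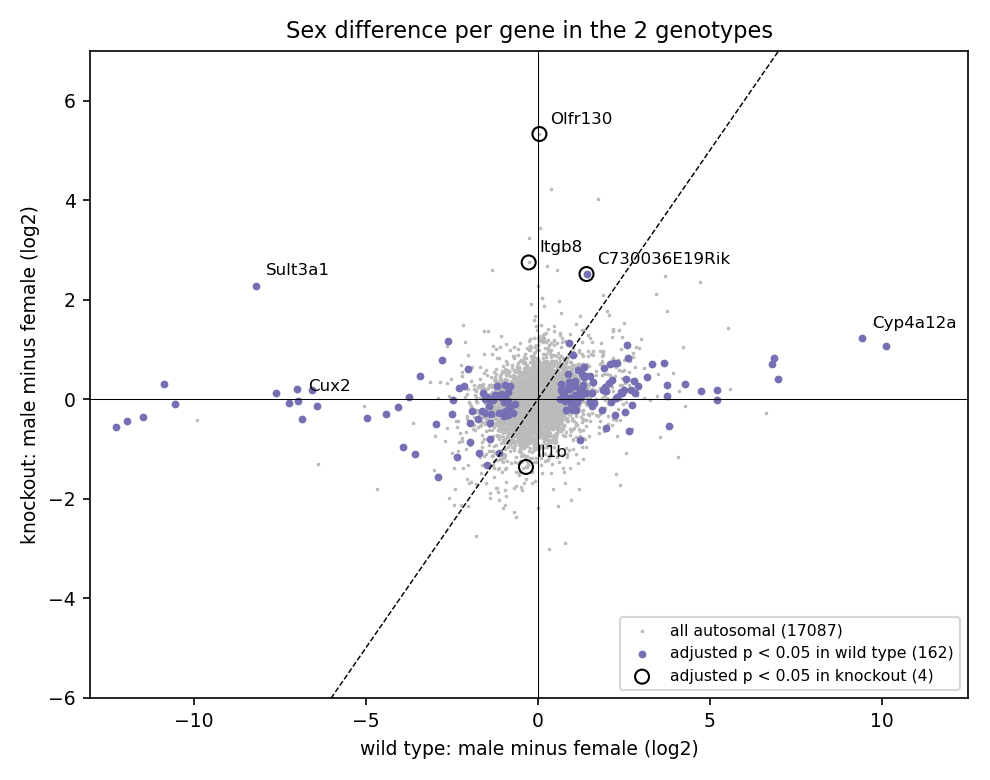
Male minus female difference of each of 17087 autosomal genes in wild type (horizontal axis, log2) and knockout (vertical axis, log2); the dashed line marks equal differences. The 162 genes that passed in wild type lie near 0 on the knockout axis, with a median absolute knockout difference of 0.253, and the 4 that passed in knockout are circled.

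The 162 genes that differed between the sexes in wild type were then read on the knockout arrays. Their wild-type difference came from the wild-type arrays, but the spread behind the test came from all 8 arrays: the wild-type count was 51 to 84 with 1 knockout array left out and 28 with the 4 wild-type arrays alone. Their median absolute difference was 0.253 in knockout and 1.60 in wild type, and 13 of them reached 2-fold in knockout against 130 in wild type. The median share of the wild-type difference left in knockout was 7.44% (quartiles -2.27% and 23.7%). It was under 25% in either direction for 117 genes and over 50% in the same direction for 9. In 35 of the 162 a group was above background on no array, so these shares rest in part on signals below it. Among the 116 above background on all 8 arrays, a subset chosen after seeing the data, the median share was 9.34%, and it was over 50% for 7. It was under 25% for 85, but this count takes in reversed differences of any size and cannot be set beside the 117. Over all 162 genes, the direction was the same for 115 (71.0%). At an unadjusted p under 0.05, 41 of the 162 differed in the same direction and 7 in the opposite one. Of all autosomal genes, 5.32% were past that p in either direction. The same spread over 8 arrays enters both tests, so the choice of the 162 also favours a small knockout p. C730036E19Rik alone passed the adjusted test in both genotypes, 1 of the 162 and 1 of the 4. For 157 genes the 95% confidence interval of the knockout difference excluded the wild-type difference. This count takes the wild-type difference as exact, although it was itself an estimate from 2 arrays a sex, so it does not count changed genes. The knockout interval lay within 2-fold in either direction for 110. The interaction, which tests the change in sex difference, passed for 29 of the 162, and the difference was smaller in knockout for all 29. The 162 were chosen for a wild-type difference that also enters the interaction, so the choice favours this direction. The 25 genes with the widest wild-type gap, over 4 on the log2 scale, had a median absolute difference of 6.97 in wild type and 0.303 in knockout.

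Knockout livers of both sexes lay closer to the wild-type female than to the wild-type male level for most of these genes. With the wild-type female mean at 0 and the wild-type male mean at 1, the median position was 0.00416 in knockout females and 0.0902 in knockout males. Both knockout sexes were on the female side of the midpoint for 125 of 162 genes, 71 of the 95 higher in wild-type males and 54 of the 67 higher in wild-type females. Both were on the male side for 28. Both lay beyond the wild-type female level for 58 of the 162 and beyond the male level for 9. A median near 0 therefore does not place each gene at the female level. Among genes above background on all 8 arrays, more than 50% of the wild-type difference was left for Tedc2 (124%), Ptgds (95.4%), Tssk5 (89.3%), Sult2a8 (86.2%), Evc2 (63.9%), Slc49a4 (57.8%) and Emp2 (57.5%). Lrp11 was among the 7 past an unadjusted p of 0.05 in the opposite direction, at -0.81 in knockout and 1.23 in wild type.

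Of the 67 genes higher in wild-type females, 54 had both knockout sexes on the female side of the midpoint and 10 on the male side. Cux2, a homeobox transcription factor of female liver, was 2.29 and 1.91 in knockout females and 2.11 and 2.0 in knockout males. In wild type it was 0.11 and 0.78 in females and not well above background in males, at least 36.3-fold lower. The sexes overlapped in knockout, with a difference of -0.05 (95% interval -0.69 to 0.60), and the interaction passed (limma, adjusted p = 0.0102). Slc22a26 was 2.71 and 2.38 in knockout females and 2.66 and 2.69 in knockout males, and was at least 126-fold lower in males in wild type. The cytochrome P450 Cyp3a44 was 5.27 and 5.69 against 5.68 and 5.66 in knockout, where wild-type females were lower, at -0.54 and 0.99. For the cytochrome P450 genes Cyp2b9 and Cyp2b13, the knockout differences were -0.39 (95% interval -1.55 to 0.77) and -0.11 (-0.91 to 0.70). Their wild-type differences were -6.84 and -10.55. Cyp2b13 read 1.73 and 1.66 in knockout females and 1.77 and 1.41 in knockout males, below wild-type females at 6.62 and 5.63.

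Sult3a1 had the opposite direction in knockout. It read 0.98 and 1.20 in knockout females and 3.1 and 3.64 in knockout males, without overlap, while wild-type males were at least 70.8-fold below wild-type females. The knockout difference was 2.28 ± 0.67 (SE, n = 2 arrays a sex) and did not pass the test (limma, adjusted p = 0.687), and the interaction passed (adjusted p = 0.0289).

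Of the 95 genes higher in wild-type males, 71 had both knockout sexes on the female side of the midpoint and 18 on the male side. Cyp4a12a, a fatty acid hydroxylase regulated by androgen and growth hormone, was -4.13 and -3.66 in knockout females and -2.51 and -2.83 in knockout males, against 5.44 and 5.56 in wild-type males. Knockout males read above knockout females by 1.23 (95% interval 0.32 to 2.14), which did not pass (limma, adjusted p = 0.694), and the wild-type difference was 9.41. Elovl3, a fatty acid elongase, was -5.32 and -4.20 in knockout females and -4.87 and -3.85 in knockout males, and 6.03 and 5.58 in wild-type males. In each knockout sex only 1 array was above background for Elovl3. Nat8, an acetyltransferase, differed by -0.02 in knockout and 5.19 in wild type. C6, a complement component, differed by 0.28 and 3.74. Cyp2d34 differed by -0.54 and 3.80, with only 1 knockout male array above background. Nat8f5 was above background on none of the 4 knockout arrays, so no knockout fold is given, and it read 2.86 and 2.76 in wild-type males.

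Cyp7b1, the oxysterol hydroxylase of the alternative bile acid pathway, read higher in knockout males than in knockout females, by less than in wild type. It was 2.88 and 3.02 in knockout females and 3.68 and 3.67 in knockout males, with no overlap. The difference of 0.73 ± 0.14 (SE, n = 2 arrays a sex) did not pass the test over all genes (limma, adjusted p = 0.521), and the wild-type difference was 3.68. A second probe gave 0.62 in knockout and 3.79 in wild type.

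**Figure D3:**
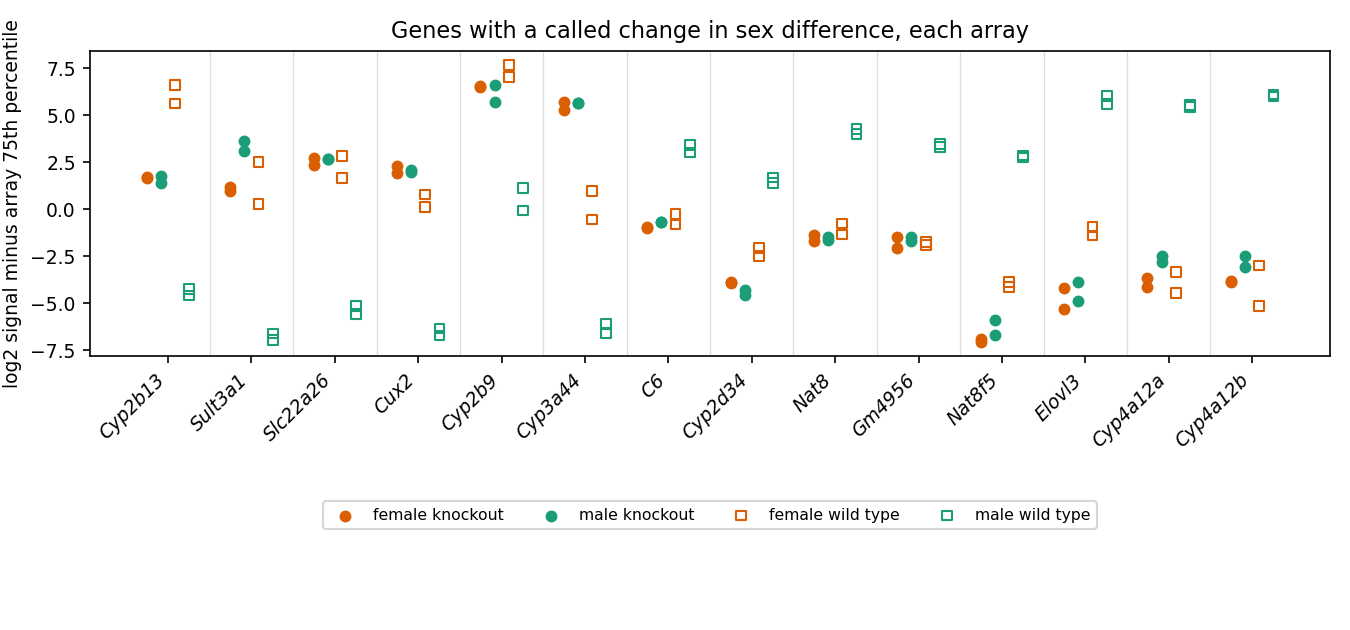
Level on each of 8 arrays of 14 genes whose interaction passed the test, from those with the largest change among such genes (log2 signal minus array 75th percentile); filled circles are knockout, open squares wild type, orange females and green males. For each gene the knockout sexes lie closer together than the wild-type sexes, as for Cux2 (2.29 and 1.91 against 2.11 and 2.0 in knockout). The male minus female difference in knockout is widest for Sult3a1 (2.28, opposite to wild type), Cyp4a12a (1.23) and Cyp4a12b (1.07).

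Among the 4 genes that passed in knockout, the widest difference was that of Olfr130, an olfactory receptor. It was -6.65 and -6.89 in knockout females and -0.91 and -1.97 in knockout males, and was above background only in knockout males, at least 10.8-fold higher (limma, adjusted p = 0.00900). The interaction also passed (adjusted p = 0.0320). Itgb8, an integrin subunit that activates latent TGF-beta, was -6.78 and -6.97 in knockout females and -4.18 and -4.07 in knockout males, at least 1.68-fold higher (limma, adjusted p = 0.0286). It was above background only in knockout males. C730036E19Rik, a long non-coding RNA gene on chromosome 1, was -6.39 and -6.61 in knockout females and -4.18 and -3.80 in knockout males, at least 1.85-fold higher (limma, adjusted p = 0.00885). In wild type it was -4.24 and -4.10 in females and -2.68 and -2.83 in males. These 3 genes passed the background filter in knockout only through males, where they were high. Their p-values test the full differences, which rest on female signals below background, and do not belong to the lower bounds. Each was called in 5 of 8 fits with 1 array left out, and in 8 (Olfr130, C730036E19Rik) and 5 (Itgb8) of 10 other alternatives.

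Il1b, the inflammatory cytokine interleukin 1 beta, was the 1 gene lower in males. It was -0.81 and -1.01 in knockout females, -2.24 and -2.30 in knockout males and -2.75 to -2.30 in wild type, so knockout females stood above the other 3 groups. The difference was -1.36 ± 0.11 (SE, n = 2 arrays a sex), a 2.57-fold lower level in males (limma, adjusted p = 0.0286), and a second probe gave -1.76. The wild-type difference was -0.34, and the interaction did not pass (adjusted p = 0.154). Of 8 fits with 1 array left out Il1b was called in 2, with a difference of -1.46 to -1.26, and of 11 other alternatives it was called in 5. The summed level of 6 neutrophil markers was 3.83 and 4.98 in knockout females and 3.37 and 3.45 in knockout males, and the female with the lower sum had the higher Il1b. None of the 6 passed, 4 were lower and 2 (Camp, 0.13, and Elane, 0.07) higher in males. S100a9 and Retnlg were lower in males by 0.91 and 1.41 at an unadjusted p under 0.05 (adjusted p = 0.673 and 0.696). Their part in the Il1b result was not tested. Macrophage markers summed to 132 and 146 in knockout females and to 149 and 123 in knockout males. In bulk liver, fewer cells of a type and less RNA per cell cannot be told apart.

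Genes next in rank did not pass the test in knockout, and several had wild-type differences of like size. Sult2a8, a sulfotransferase acting on bile acids, was 5.25 and 5.27 in knockout females and 6.12 and 6.15 in knockout males, a difference of 0.88 ± 0.11 (SE; limma, adjusted p = 0.196) against 1.02 in wild type. Ptgds, which makes prostaglandin D2, was 2.12 and 2.07 in knockout females and 1.07 and 0.95 in knockout males. Its difference was -1.09 in knockout and -1.14 in wild type (adjusted p = 0.240 and 0.0369). Tedc2, which binds tubulins of the centriole, differed by 1.13 and 0.91, and a second probe gave 0.97 and 0.34. The kinase gene Tssk5 differed by -1.33 and -1.49. Vps53, a subunit of a vesicle tethering complex, differed by 1.23 in knockout and -0.11 in wild type (adjusted p = 0.176 and 0.757), and Dhtkd1, a mitochondrial dehydrogenase, by -1.19 and -0.37. For Vps53 the interaction did not pass (limma, adjusted p = 0.156), and only 1 knockout female array was above background.

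**Figure D4:**
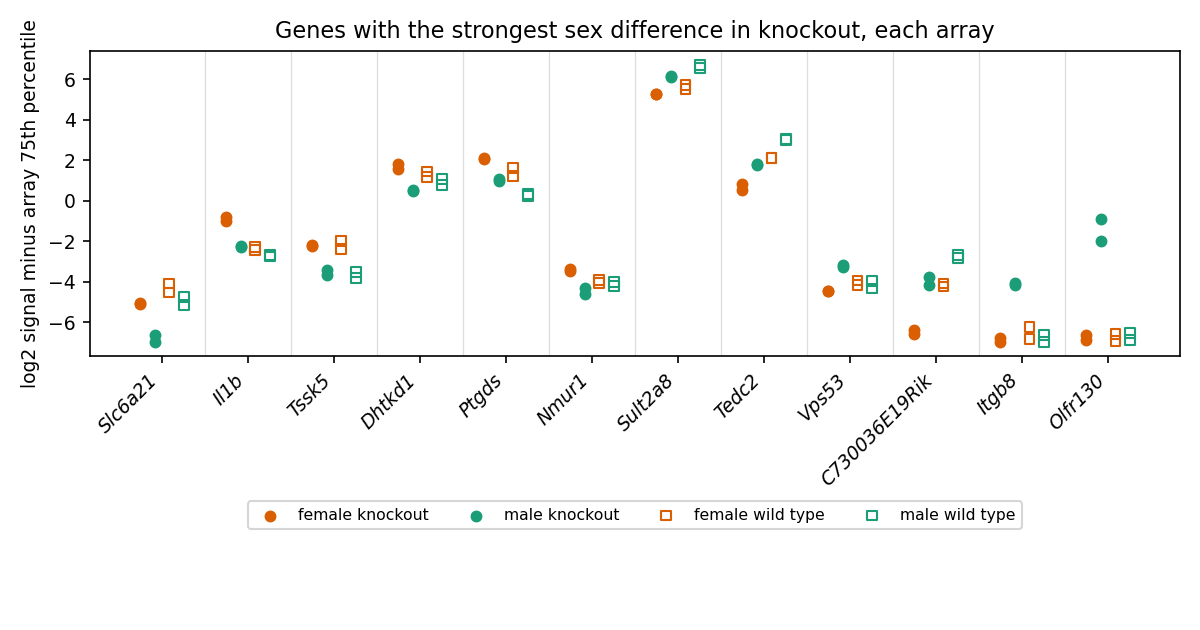
Level of 12 genes ranked by p for a sex difference in knockout, 6 higher and 6 lower in males, each array shown (log2 signal minus array 75th percentile; filled circles knockout, open squares wild type, orange females, green males). Olfr130 and Itgb8 are above background only in knockout males, and Il1b is highest in knockout females (-0.81 and -1.01). Slc6a21 is above background on no knockout array, so its gap there is not a measured difference.

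Of 44 male-biased liver genes measured, none passed in knockout and 6 were higher in males at an unadjusted p under 0.05, with 0 lower (background 2.38% and 2.94%). The median difference was 0.27 in knockout and 1.85 in wild type, where 12 passed. Of 60 female-biased genes, none passed in knockout, 1 was higher and 0 were lower in males at that p, and the median was -0.06 against -1.59 in wild type, where 20 passed. The medians over all autosomal genes were 0.01 and 0.01.

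The major urinary proteins were higher in males on the knockout arrays, and none passed. All 11 measured were higher, with a median of 1.19 (0.47 to 1.77) against 0.66 in wild type, and the arrays of the sexes did not overlap for any of the 11 (23.1% of all autosomal genes were higher in males without overlap). At an unadjusted p under 0.05, 6 were higher. Mup20, or darcin, the pheromone that attracts females, was 5.95 and 7.36 in knockout females and 8.09 and 7.98 in knockout males. A second Mup20 probe gave a wider difference in wild type (3.28) than in knockout (1.51). Mup2 was 6.12 and 7.83 against 8.77 and 8.66. Female knockout replicate 1 was lowest for every one of these proteins in knockout. Without that array all 11 were still higher, with a median of 0.57 (0.16 to 1.16), and without the other female array the median was 1.61. The genes are near-identical copies, so probes may bind several of them and the 11 values are not independent.

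Growth hormone receptor (Ghr) was 7.99 and 7.99 in knockout females and 8.09 and 8.03 in knockout males, a difference of 0.07. Stat5b, the main STAT5 of liver, differed by 0.13. Of 31 genes of growth hormone and STAT5 signalling, none passed, Stat5a (0.42) was higher and Igfbp2 (-0.63), a binding protein for insulin-like growth factors, was lower in males at an unadjusted p under 0.05. A second Stat5a probe gave 0.20 in knockout. The feedback inhibitor Cish read 2.36 and 1.36 in knockout females and 1.17 and 2.22 in knockout males, so the sexes overlapped. Prlr, the prolactin receptor, differed by -0.08 in knockout and -1.03 in wild type. Among 23 genes of sex steroid signalling none passed. The progesterone receptor Pgr was higher in males at an unadjusted p under 0.05, at -6.02 and -4.50 in knockout females, of which 1 was above background, and -4.13 and -2.65 in knockout males. The estrogen receptor Esr1 differed by 0.24 (limma, adjusted p = 0.948), with no overlap between the sexes.

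Of 26 genes of lipogenesis, none passed and 5 were higher in males at an unadjusted p under 0.05 (2.38% of all autosomal genes), with a median of 0.20 in knockout and -0.11 in wild type. Acacb, the acetyl-CoA carboxylase of the mitochondrial surface, was 3.99 and 3.96 in knockout females and 4.52 and 4.86 in knockout males. The desaturases Fads1 and Fads2 were higher by 0.45 and 0.62 in knockout males and lower by 0.45 and 0.39 in wild-type males. A second probe gave 0.08 for Acacb and 0.49 for Fads2 in knockout. Pnpla5, a lipase of lipid droplets, and Gpam, the first acyltransferase of glycerolipid synthesis, were the others (0.77 and 0.30). Of 43 PPARA targets and 24 cholesterol genes, none was past an unadjusted p of 0.05.

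At an unadjusted p under 0.05, 2.38% of all autosomal genes were higher and 2.94% lower in males. Of 25 bile acid genes, Cyp7b1 and Cyp27a1 were higher and the bile acid exporter subunit Slc51b and the receptor Fgfr4 lower in knockout males at that p, and none passed. Slc51b was -0.63 and -0.76 in knockout females and -1.99 and -2.23 in knockout males, and its difference was -1.41 against -1.15 in wild type. Of 38 CAR and PXR genes, none passed. At the same unadjusted p, Cyp2f2, Ces2c and Gstm3 were higher and the efflux pump Abcb1a lower in males (-1.05; limma, adjusted p = 0.772). Of 9 cholangiocyte markers, none passed, and Krt19, Cldn7 and Cftr were lower in males at that p by 0.92, 0.62 and 0.45, with summed levels of 5.97 and 6.85 in knockout females and 5.47 and 6.16 in males. Of 13 T and NK cell markers Cd8a was higher in males at that p (1.17), but was not above background in knockout females. Of 22 interferon, 20 clock and 17 cell cycle genes, none was past it.

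**Figure D5:**
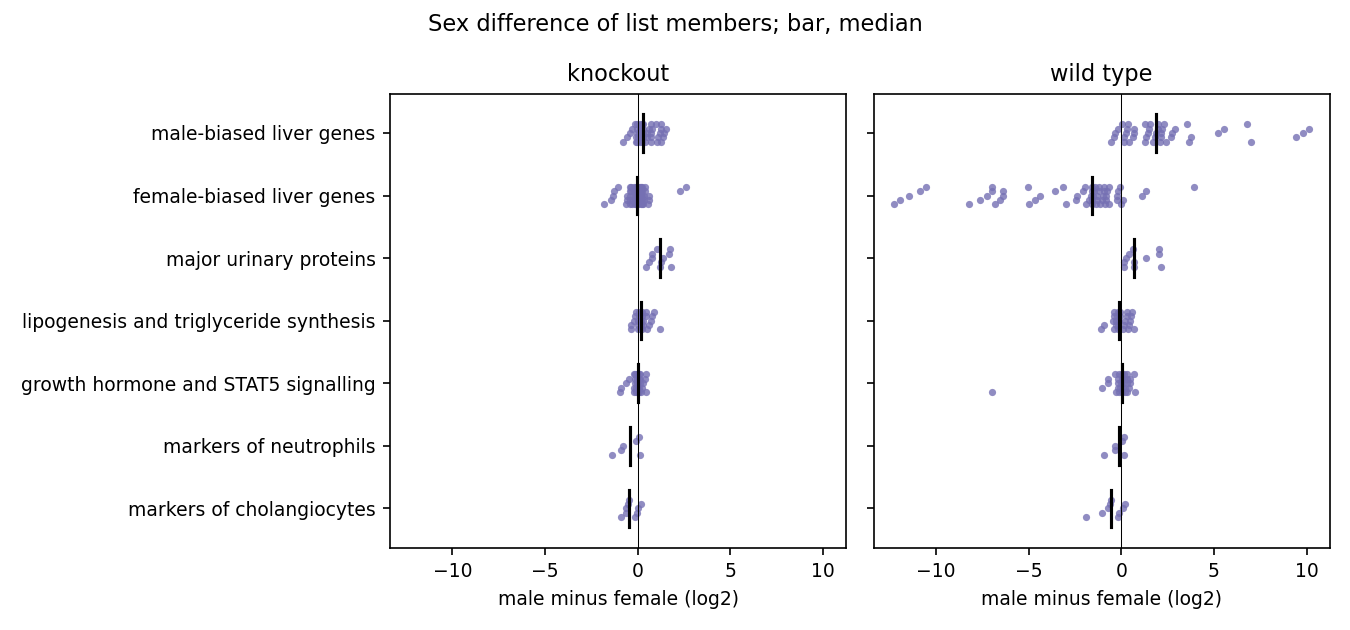
Male minus female difference (log2) of each measured member of 7 gene lists in knockout (left) and wild type (right), with a bar at the median. Female-biased liver genes centre near 0 in knockout (median -0.06) and male-biased ones above it (median 0.27, 32 of 44 higher in males). Both medians lie further from 0 in wild type (-1.59 and 1.85).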

How the data were processed

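Per the labels, total RNA was hybridised to 1-colour Agilent arrays, 1 per sample, in 4 groups of 2. The deposited intensity values are the background-subtracted processed signals of Agilent Feature Extraction, version 11.5.1.1 per the file headers and 9.1.3.1 per the submitters' processing notes. Raw median intensity values were deposited too. The deposited log2 value table equalled the log2 processed signal minus a constant of 6.99 to 7.30 per array, with column medians of -3.25 to -3.13. No source gives the reason for that constant.

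From the processed signals, the 75th percentile of each array was subtracted on the log2 scale. Spots of a probe were averaged, 33580 probes called well above background on both arrays in some group were kept (70 dropped for outlier spots), and the brightest probe stood for each of 5331 genes with several. RefSeq (GRCm38.p6) named 32994 probes. A model of 4 group means was fitted to the 8 arrays with limma 3.58.1 (R 4.3.3), with 4 residual and 2.07 prior degrees of freedom, and Benjamini-Hochberg adjustment over 26510 features at 0.05. The fit was tested on simulated data. A fold against a group not above background is a lower bound ("at least"), taken against the lowest signal above background on each array. The p-value printed beside such a bound tests the full difference, signals below background included. Named genes were those with the smallest p in knockout (6 a direction where fewer passed), those past both sex contrasts, the 8 largest interactions a direction among those that passed, up to 4 of each list by smallest knockout p, and 6 label checks; Prlr, Ghr, Stat5b, Cish and Esr1, the genes with over 50% of their wild-type difference left, Lrp11 and further list members were named after their values were seen. Some genes that fall under this rule are not reported here. There were 27 lists. The members and lists were chosen with earlier results of these data known. Plots were drawn with matplotlib 3.10.9 under Python 3.11.15, pandas 2.3.3 and numpy 2.4.6.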

Additional observations from a re-analysis of the deposited data

Results flagged for a closer look

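For the genes named here the test of the interaction passed, so the male minus female difference itself differed between knockout and wild type (limma, adjusted p under 0.05). The change, knockout minus wild type on the log2 scale, was positive for Olfr130 (5.28), Itgb8 (3.01), Sult3a1 (10.48), Cyp2b13 (10.44), Slc22a26 (7.73), Cux2 (6.93), Cyp3a44 (6.75) and Cyp2b9 (6.45). It was negative for Cyp4a12b (-9.05), Cyp4a12a (-8.18), Elovl3 (-6.58), Nat8f5 (-6.09), Nat8 (-5.22), Gm4956 (-5.03), Cyp2d34 (-4.35), C6 (-3.47) and Cyp7b1 (-2.95). For Sult3a1, Slc22a26, Cux2 and Cyp3a44 the wild-type males, for Nat8f5 both knockout sexes, and for Olfr130 and Itgb8 all groups but knockout males were not above background, so the sizes of these changes rest on signals below it.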

How the results depend on the processing

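The count of 4 autosomal sex differences in knockout was 1 with normexp correction, 2 with no background filter, 0 among genes above background on all 8 arrays, 2 with adjustment over autosomal genes and 2 with the 4 knockout arrays alone. Leaving out 1 array gave 1 to 114. The wild-type count of 162 was 449 with normexp, 58 with no filter, 431 with an intensity trend and 28 with 4 arrays alone, and 51 to 622 with 1 array left out. The interaction count of 32 was 59, 9 and 62 under normexp, no filter and the trend, and 37 to 290 with 1 array left out. The count passing in both genotypes, 1, was 0 with no filter, 0 above background on all 8 arrays, 3 with the trend, 0 with 4 arrays alone and 0 to 1 with 1 array left out. The cause was not tested. The interaction could not be run on 4 arrays alone. A replicate block gave counts of 3 (knockout), 112 (wild type), 19 (interaction) and 0 (both). A check on the shared replicate number, with 1 value for each pair of groups, gave correlations of -0.00553 to 0.171. Whether same-numbered arrays share more than a number was not settled by it. No alternative reversed a direction among called values.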
